A study of Mus musculus with 6 samples.

Results

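The Vmn1r genes encode the vomeronasal type 1 receptors, and 231 of the 21900 protein-coding genes in the RefSeq gene table of mouse assembly GRCm38.p6 carry a symbol that starts with Vmn1r. They were chosen by symbol, in knowledge of how few of them had a BMAL1 peak summit within 1 kb of a gene end, so those summits are given as a description and were not tested. Vomeronasal type 1 receptors are G protein-coupled receptors of sensory neurons in the vomeronasal organ, a nasal organ that detects pheromones and other social cues. Each receptor is typically encoded by a single coding exon, a sensory neuron expresses few of the many receptor genes, and the genes lie in dense clusters. They have no established role in the retina. BMAL1 is a transcription factor that pairs with CLOCK, binds the E-box CACGTG and drives the daily cycle of the circadian clock.

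The data were 6 lists of BMAL1 chromatin immunoprecipitation sequencing (ChIP-seq) peaks, 1 for each library of retinal chromatin from C57BL/6 mice. The groups were 3 wild-type libraries, named control 1 to 3, and 3 libraries with conditional knockout of Bmal1, named Bmal1 CKO 1 to 3. No mouse received a treatment, and the labels give weaning at postnatal day 20 but not the age, the time of day, the Cre line or the retinal cells that lost the gene. The labels do not say how the libraries relate to single animals, so a p-value here measures only the spread between these 6 libraries. Peak lists hold no expression values, so neither the loss of Bmal1 nor the identity of the tissue could be checked against marker genes.

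The lists held 179475, 410 and 372 peaks in control 1 to 3 and 1444, 138254 and 519 peaks in Bmal1 CKO 1 to 3. Control 1 and Bmal1 CKO 2 thus stood apart from the other 4 libraries, 1 in each genotype. The lowest background recovered from the deposited values, which serves as a measure of relative depth, ranged from 0.560 to 5.83 fragments per base, and Bmal1 CKO 1 had 2.78 against 3.46 in control 1. The names of the lists carry other digits than the sample titles do, and only the series record tied a list to its library. Control 1 and Bmal1 CKO 2 are called the long lists below, and the other 4 the short lists.

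The RefSeq promoter table, which gives 250 bases before to 50 bases after an annotated start on GRCm38.p6, held 206 of the 231 members. The promoter sequences below show a summit, differences between near copies, a promoter shared by several members, and the E-box. All are written 5′ to 3′ on the strand of the gene. Vmn1r51 was the only member with a summit inside its promoter window, and the capitals mark that summit, in control 1, and the 25 bases on either side of it.
Vmn1r51 (chr6:90122393-90122692, plus strand): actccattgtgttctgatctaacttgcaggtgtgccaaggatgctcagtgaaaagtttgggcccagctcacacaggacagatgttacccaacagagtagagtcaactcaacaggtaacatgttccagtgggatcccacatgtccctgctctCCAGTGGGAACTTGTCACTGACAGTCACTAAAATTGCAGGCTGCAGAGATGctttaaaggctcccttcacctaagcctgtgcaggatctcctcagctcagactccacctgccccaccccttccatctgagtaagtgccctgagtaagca
Vmn1r117 had an end summit in both long lists, and Vmn1r101 and Vmn1r119, in the same cluster, had 1 in Bmal1 CKO 2. Capitals in the latter pair mark the bases that differ from Vmn1r117, of which there are 15 in Vmn1r101 and 14 in Vmn1r119.
Vmn1r117 (chr7:20884072-20884371, minus strand): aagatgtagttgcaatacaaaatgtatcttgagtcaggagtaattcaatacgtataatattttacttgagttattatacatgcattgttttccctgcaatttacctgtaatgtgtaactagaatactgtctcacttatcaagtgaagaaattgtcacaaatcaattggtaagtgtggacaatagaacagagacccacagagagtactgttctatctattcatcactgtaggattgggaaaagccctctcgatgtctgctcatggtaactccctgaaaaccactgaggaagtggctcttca
Vmn1r101 (chr7:20442544-20442843, minus strand): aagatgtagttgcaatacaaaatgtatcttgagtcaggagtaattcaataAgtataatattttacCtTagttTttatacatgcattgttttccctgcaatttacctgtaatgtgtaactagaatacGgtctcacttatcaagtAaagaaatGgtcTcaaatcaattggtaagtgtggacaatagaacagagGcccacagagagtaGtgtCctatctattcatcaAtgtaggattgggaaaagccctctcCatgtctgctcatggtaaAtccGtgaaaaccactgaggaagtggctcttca
Vmn1r119 (chr7:21012406-21012705, minus strand): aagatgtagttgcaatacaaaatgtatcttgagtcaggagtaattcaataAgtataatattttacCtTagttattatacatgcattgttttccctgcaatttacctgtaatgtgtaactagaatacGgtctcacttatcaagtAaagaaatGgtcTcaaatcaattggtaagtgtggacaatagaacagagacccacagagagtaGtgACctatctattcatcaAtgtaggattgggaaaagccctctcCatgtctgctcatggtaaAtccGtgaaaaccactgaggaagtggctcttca
Vmn1r166 had the highest fold among the members' end peaks in Bmal1 CKO 2, and its promoter is shared letter for letter by 6 members.
Vmn1r166 (chr7:23251633-23251932, minus strand): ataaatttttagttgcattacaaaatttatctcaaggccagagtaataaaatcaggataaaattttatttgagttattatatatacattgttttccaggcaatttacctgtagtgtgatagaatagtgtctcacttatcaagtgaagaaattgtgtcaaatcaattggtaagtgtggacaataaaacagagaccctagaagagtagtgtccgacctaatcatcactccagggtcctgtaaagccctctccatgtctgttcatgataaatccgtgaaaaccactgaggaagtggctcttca
Vmn1r191 was the only member whose promoter holds the E-box, which is in capitals. It had no end summit in any list.
Vmn1r191 (chr13:22179533-22179832, minus strand): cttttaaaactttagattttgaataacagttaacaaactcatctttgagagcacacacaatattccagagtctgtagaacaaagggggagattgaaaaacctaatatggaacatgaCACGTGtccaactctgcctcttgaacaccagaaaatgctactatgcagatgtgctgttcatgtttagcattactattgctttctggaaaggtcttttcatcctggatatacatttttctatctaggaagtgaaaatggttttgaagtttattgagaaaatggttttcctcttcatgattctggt

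A peak summit within 1 kb of either annotated end was present at 7 members (3.03%) in control 1 and at 13 members (5.63%) in Bmal1 CKO 2. Over all protein-coding genes the share was 69.5% in control 1 and 58.9% in Bmal1 CKO 2. In the short lists 0 of 231 members had such a summit, while the share over all genes was 0.0594% in control 2, 0.0594% in control 3, 0.342% for Bmal1 CKO 1 and 0.105% for Bmal1 CKO 3. At those shares less than 1 member would carry a summit, so the zeros in the short lists lie near the background. Across the 6 lists 17 members had an end summit in at least 1 list and 214 had none. Of the 17, 3 were in both long lists, 4 in control 1 only and 10 in Bmal1 CKO 2 only. Over all protein-coding genes, 11974 were in both, 3252 in control 1 only and 924 in Bmal1 CKO 2 only. The difference between these splits was not tested.

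The count moves with how far from the gene a peak may lie. With a summit anywhere in the gene or within 10 kb of it, 134 members (58.0%) were counted in control 1 and 141 (61.0%) in Bmal1 CKO 2, against 92.6% and 87.8% of all genes. The short lists gave 4 members (1.73%) for control 2, 0 for control 3, 7 (3.03%) for Bmal1 CKO 1 and 2 (0.866%) for Bmal1 CKO 3, against 0.781%, 0.758%, 2.05% and 1.08% of all genes. The median distance from a member's end to the nearest summit was 8628 bp in control 1 and 8001 bp in Bmal1 CKO 2, against 356 bp and 516 bp over all genes. The members are short, with a median length of 924 bp against 17146 bp, so the searched window had a median of 2924 bp against 4002 bp. Per Mb of window the members had 9.91 end summits in control 1 and 19.8 in Bmal1 CKO 2, against 244.9 and 202.7 over all genes.

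Other chemosensory receptor families had larger shares. Olfr genes, the odorant receptors of the main olfactory epithelium, are about as short as the members, with a median of 950 bp. Of 1110 Olfr genes, 217 (19.5%) had an end summit in control 1 and 201 (18.1%) in Bmal1 CKO 2. Vmn2r genes encode the vomeronasal type 2 receptors, which have a long extracellular domain. Of 124 Vmn2r genes, 12 (9.68%) had an end summit in control 1 and 21 (16.9%) in Bmal1 CKO 2. Vmn2r genes are longer, with a median of 24392 bp and a median searched window of 4002 bp against 2924 bp for the members. Per Mb of window in these lists, Vmn2r genes had 28.2 and 48.4 end summits and Olfr genes 68.5 and 64.2. The members had 9.91 and 19.8. In the short lists, Vmn2r genes with an end summit numbered 1 for control 2, 4 for Bmal1 CKO 1 and 2 for Bmal1 CKO 3, and Olfr genes numbered 2 for Bmal1 CKO 1 and 2 for Bmal1 CKO 3. These differences from the members were not tested.

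**Figure D1:**
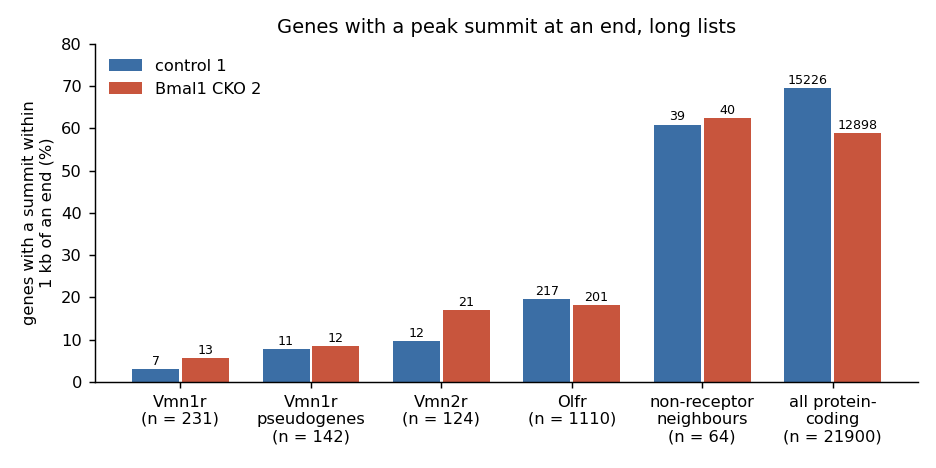
Share of genes (%) with a peak summit within 1 kb of an annotated end in the long lists, for 5 groups of genes and for all protein-coding genes, with the number of such genes over each bar. The Vmn1r bars (7 and 13 of 231) are the lowest, and the non-receptor neighbours of the receptor clusters (39 and 40 of 64) lie beside all genes.

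Members with an end summit in both long lists were Vmn1r4, Vmn1r56 and Vmn1r117. At Vmn1r117 (chr7:20883198-20884121, minus strand) the summit lay inside the gene, 168 bp after the annotated start in control 1 and 154 bp after it in Bmal1 CKO 2. The summits were 14 bp apart. The authors' fold enrichment over local background was 4.26 in control 1, with 18 stacked fragments, and 5.27 in Bmal1 CKO 2, with 35. No other gene lay at that summit. At Vmn1r56 (chr7:5194916-5196747) the control 1 summit lay 830 bp outside the lower end and had a fold of 6.05. The Bmal1 CKO 2 summit lay 708 bp outside it and had a fold of 3.95. These were 122 bp apart, and the control 1 peak was the highest end peak of the members in that library. The strand of Vmn1r56 was not given in the tables used here.

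The peak at Vmn1r4 also lies at another gene. Vmn1r4 is annotated over 33695 bp (chr6:56923914-56957608, plus strand), and its lower end overlaps the end of Nt5c3, which encodes a pyrimidine nucleotidase. The control 1 summit lay 48 bp outside that end with a fold of 5.04. Bmal1 CKO 2 had 2 peaks there, with folds of 3.47 and 3.42, at 342 bp and 388 bp from the control 1 summit. Relative to the RefSeq start of Vmn1r4 the control 1 summit is at -32647 bp. These peaks therefore lay at the end of Nt5c3 and not near the annotated start of the receptor gene.

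The other 4 members called in control 1 were Vmn1r47, Vmn1r51, Vmn1r59 and Vmn1r88. At Vmn1r51 (chr6:90122643-90130645, plus strand) the summit lay 74 bp before the annotated start, in the sequence printed above, with a fold of 4.26. Vmn1r59 had a fold of 3.81 at a summit 624 bp after the start. Vmn1r47 had a fold of 3.36 at a summit 677 bp after the start. The summit at Vmn1r88 lay 814 bp outside the gene, inside the pseudogene Gm4879, with a fold of 2.91. Just outside the window were Vmn1r167, 1049 bp from the nearest summit, and Vmn1r198, at 1294 bp.

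In Bmal1 CKO 2 the highest end peaks lay inside receptor genes of 1 cluster on chromosome 7. Vmn1r166 had a fold of 6.00 with 40 stacked fragments, 716 bp after its start, and Vmn1r257 had a fold of 5.42 with 36, 577 bp after its start. By fold among all end peaks of protein-coding genes in that list, Vmn1r166 stood at percentile 99.6, Vmn1r257 at 98.8 and Vmn1r117 at 98.5. By −log10 q they stood at 98.9, 97.3 and 96.4. In control 1, Vmn1r117 stood at 68.9 by fold and 44.7 by −log10 q. In Bmal1 CKO 2, Vmn1r258 had a fold of 3.95, Vmn1r101 of 3.81 and Vmn1r119 of 3.66. Vmn1r55, Vmn1r83 and Vmn1r89 each had a fold of 3.22. The weakest were Vmn1r1, the single member on chromosome 1, with 2.87, and Vmn1r87 with 2.63. Nearest to the edge of the window were Vmn1r87, at 730 bp, and Vmn1r201, which fell outside at 1025 bp.

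The median fold of the members' end peaks was 4.26 in control 1 against 3.59 over all end peaks, and 3.57 in Bmal1 CKO 2 against 2.95. All peaks in the clusters described below had medians of 4.26 and 3.37, and most of them sat at the lowest background of their list, to which the fold is a ratio. By −log10 q the members' end peaks had a median percentile of 44.7 among all end peaks in control 1 and of 65.5 in Bmal1 CKO 2. The members' end peaks were narrow, with a median width of 248 bp in control 1 against 437 bp, and of 277 bp in Bmal1 CKO 2 against 381 bp. The summit lay inside the receptor gene for 3 of 7 peaks in control 1 and for 10 of 14 in Bmal1 CKO 2. For 5 of the 7 and 12 of the 14 no other annotated gene lay at the summit.

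**Figure D2:**
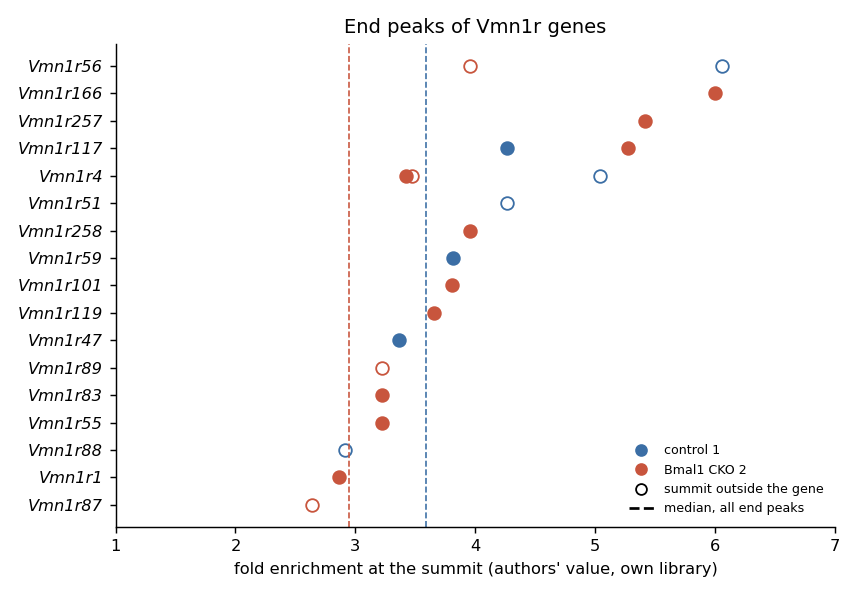
Fold enrichment (authors' value, relative to its own library) of the 7 control 1 and 14 Bmal1 CKO 2 end peaks of the 17 Vmn1r genes that have any. Filled points have the summit inside the gene, open points outside, and dashed lines give the median over all end peaks of each list (3.59 and 2.95).

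Around the annotated starts of the 206 members with a promoter entry the summit density was lower than farther out. Within 1 kb of a start it was 9.71 summits per Mb in control 1 and 24.3 in Bmal1 CKO 2. Between 5 and 10 kb from a start it was 60.2 and 57.3. Olfr genes had the opposite order, with 90.0 and 85.8 near the start against 54.0 and 43.9 farther out. Over all 17492 genes with an entry the densities near the start were 412.4 and 367.1, against 90.4 and 61.2. Vmn2r genes had the order of the members, with 8.55 and 17.1 near the start against 36.8 and 35.0. For the members in Bmal1 CKO 2 the low density lay before the start, with 9.71 per Mb at -1000 to -500 bp and 0 at -500 to 0 bp. After the start it was 48.5 at 0 to 500 bp and 38.8 at 500 to 1000 bp, from 5 and 4 summits.

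**Figure D3:**
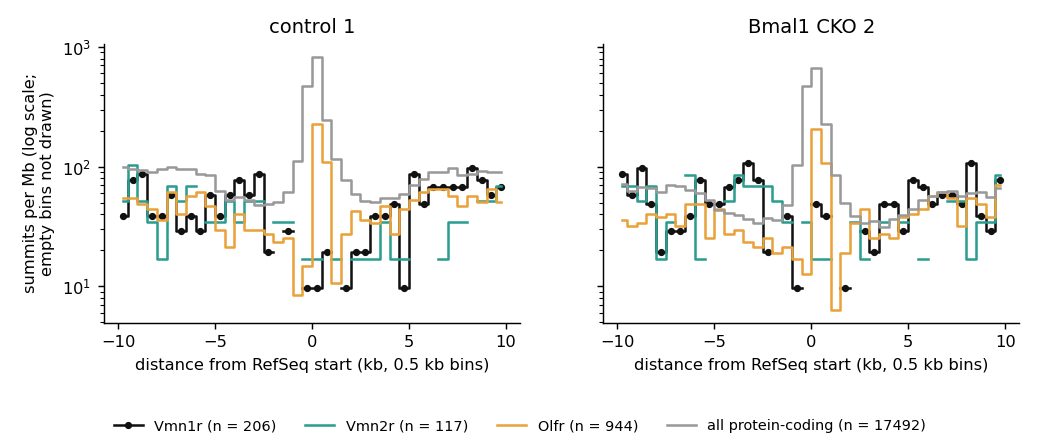
Peak summits per Mb (log scale) in bins of 500 bp by distance from the annotated start, oriented along the gene, in the long lists. All genes and Olfr genes peak at the start. The Vmn1r density falls from 60.2 and 57.3 summits per Mb at 5 to 10 kb to 9.71 and 24.3 within 1 kb. In Bmal1 CKO 2 the Vmn1r line rises just after the start, to 48.5 at 0 to 500 bp and 38.8 at 500 to 1000 bp.

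Joining members at most 1 Mb apart gave 8 clusters of at least 3 members, which held 222 of the 231 members in 12.2 Mb. On chromosome 6, the cluster at chr6:56923914-58472878 (28 members) had 1 member with an end summit in control 1 and 1 in Bmal1 CKO 2. The one at chr6:66552183-66805332 (8 members) had 0 and 0, and the one at chr6:89711261-90270053 (15 members) had 2 and 0. On chromosome 7, the cluster at chr7:5146490-6011010 (11 members) had 2 and 2, and that at chr7:10273828-13220289 (24 members) had 1 and 3. The largest, chr7:20101158-24055691 (86 members), had 1 and 6. The clusters at chr13:22087878-23250323 (36 members) and chr17:20419163-21314886 (14 members) had none in either list. The 9 members outside clusters gave 1 end summit, that of Vmn1r1 in Bmal1 CKO 2.

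The clusters as a whole were not poor in peaks. They held 834 peaks in control 1 (68.4 per Mb) and 812 in Bmal1 CKO 2 (66.6 per Mb), against 65.9 and 50.8 per Mb over the genome. Within the clusters, the 1 kb windows around receptor ends made up 5.44% of the length and held 6 of the 834 control 1 peaks, which is 0.719% (exact binomial 95% interval 0.264 to 1.56%, counting error only). In Bmal1 CKO 2 they held 11 of 812, or 1.35% (0.678 to 2.41%). The summit of Vmn1r4 in control 1 is not among the 6, since it lies just outside the cluster's span. For the same reason the 11 leave out the Vmn1r4 summit of fold 3.47 and the Vmn1r89 summit in Bmal1 CKO 2. Windows around the ends of other genes made up 1.92% of the length and held 41 and 44 peaks. In density, receptor ends had 9.05 and 16.6 peaks per Mb, other gene ends 174.9 and 187.7, and the remaining sequence 69.7 and 67.1. Outside the receptor windows the density was 7.94 times that inside them in control 1 and 4.19 times in Bmal1 CKO 2. The same ratio was 1.5 and 0.725 for clusters of Vmn2r genes and 0.803 and 0.687 for clusters of Olfr genes.

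**Figure D4:**
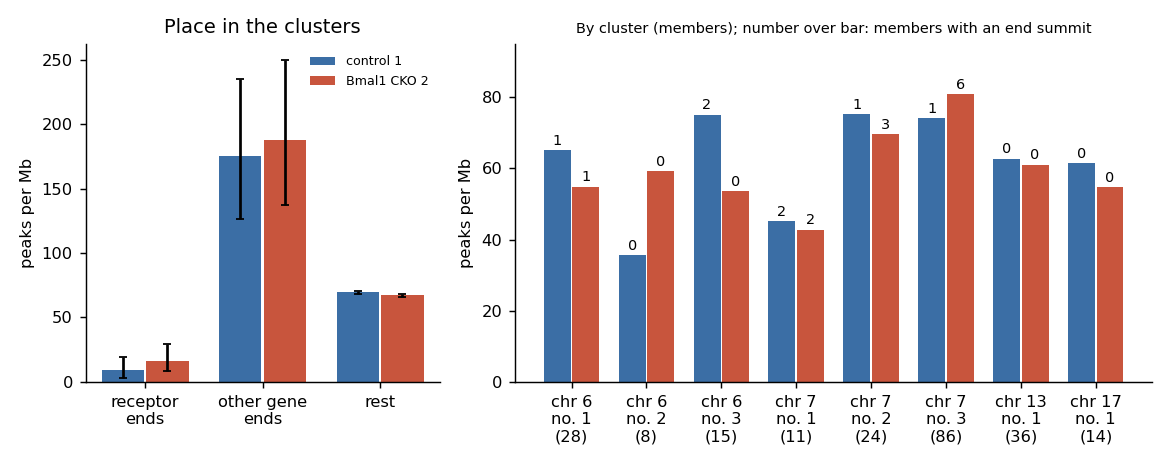
Left, peaks per Mb inside the 8 Vmn1r clusters by place, with exact 95% binomial intervals as error bars. Right, peaks per Mb in each cluster, numbered in order along its chromosome with its number of members in brackets and the number of members with an end summit over each bar. Receptor ends (9.05 and 16.6 per Mb) lie below the rest of the clusters (69.7 and 67.1 per Mb) in both lists.

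Most neighbouring genes that are not receptors had an end peak in the long lists. Of 64 such genes inside or next to a cluster, 39 (60.9%) had an end summit in control 1 and 40 (62.5%) in Bmal1 CKO 2, with 35 in both and 0 in the short lists. The shares over all genes were 69.5% and 58.9%. Inside the clusters the counts were 28 and 31 of 50. Genes with provisional Gm symbols gave 3 and 5 of 15, and genes with other symbols 36 and 35 of 49. The cluster at chr7:10273828-13220289 had 19 of 26 neighbours with an end summit in each long list, while the largest cluster had 4 and 7 of 16.

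The 10 neighbours with the highest folds had an end summit in both long lists. H2bc11, a histone H2B gene 44220 bp from the chromosome 13 cluster, had a fold of 8.36 in control 1 and 6.75 in Bmal1 CKO 2. Of the zinc finger genes among these 10, which encode a large class of DNA-binding proteins, the folds in control 1 and Bmal1 CKO 2 were 7.0 and 4.03 at Zscan22, 6.99 and 4.57 at Zfp329, and 6.76 and 4.16 at Zfp322a. They were 6.65 and 4.30 at Zfp606 and 6.36 and 4.59 at Zfp551. At Zfp160 they were 6.05 and 3.85, and at Zfp677 5.83 and 5.10. Lancl2, a lanthionine synthetase-like protein gene between receptors on chromosome 6, had 6.21 and 4.67. Ppp2r1a, the scaffold subunit of protein phosphatase 2A, lies among receptors on chromosome 17 and had 5.91 and 3.91.

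Short lists placed peaks inside the clusters but over 1 kb from the receptor ends. The 1 kb windows around receptor ends made up 5.44% of the cluster length, so few such peaks would lie in them by length alone. The short lists held 36 peaks inside the clusters. Control 2 held 7 (1.71% of its list) and control 3 held 1 (0.269%). Bmal1 CKO 1 held 22 (1.52%) and Bmal1 CKO 3 held 6 (1.16%). The clusters made up 0.448% of the genome, and these shares were not tested against it. The 36 peaks merged into 30 regions. Of these regions 24 lay in the largest chromosome 7 cluster. The distance to the nearest member's end ranged from 2916 bp, near Vmn1r250, to 105751 bp. Control 1 also had a peak in 24 of the regions and Bmal1 CKO 2 in 28, and 2 regions were in neither. A single region, chr7:12010307-12010950, was called in all 6 libraries, 30513 bp from Vmn1r77. Its folds were 7.07, 8.40 and 7.64 in control 1 to 3 and 7.32, 6.31 and 8.21 in Bmal1 CKO 1 to 3, so the groups overlapped. The highest fold in any such region was at chr7:20337082-20337433, 3169 bp from Vmn1r243. It was 12.7 in control 1, against 5.08, 8.74 and 6.64 in Bmal1 CKO 1 to 3, and the region was not called in control 2 or control 3.

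**Figure D5:**
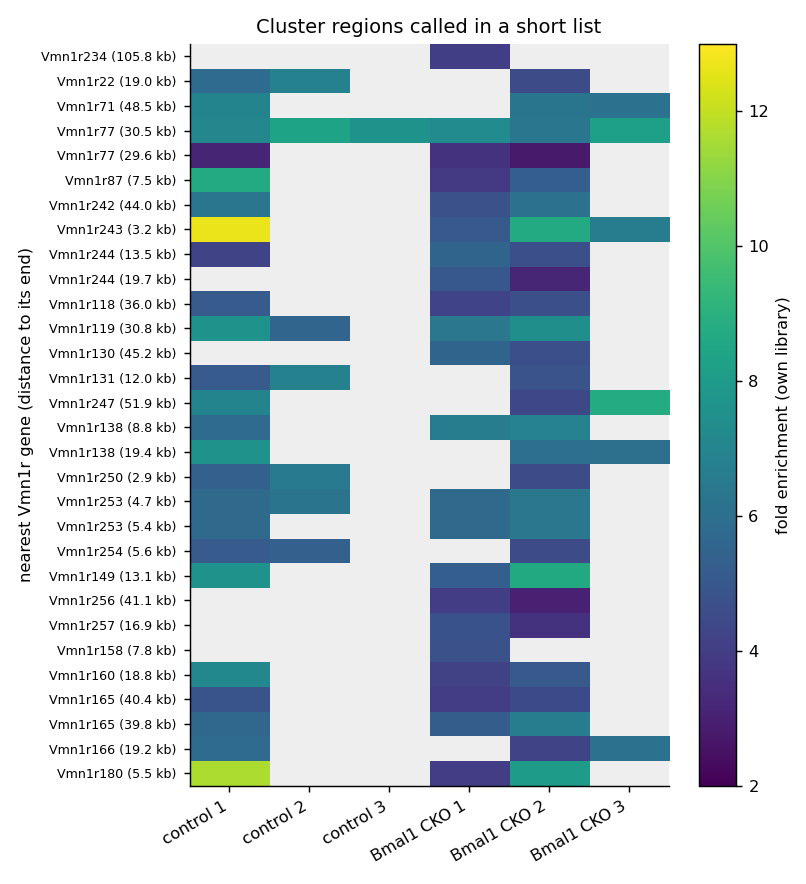
Fold enrichment (colour) in each library at the 30 cluster regions called in at least 1 short list, labelled by the nearest Vmn1r gene and the distance to its end, with grey where no peak was called. A single row, 30513 bp from Vmn1r77, is filled in all 6 libraries.

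The share of each list that fell inside the clusters but over 1 kb from a receptor end uses no end summit of a member and was compared between genotypes. It was 0.461%, 1.71% and 0.269% for control 1 to 3, and 1.52%, 0.579% and 1.16% for Bmal1 CKO 1 to 3. The groups overlapped. The control mean was 0.812% ± 0.781 (SD, n = 3). The Bmal1 CKO mean was 1.09% ± 0.476 (SD, n = 3). The difference of 0.274 percentage points was within the spread between libraries (exact two-sided permutation test over 20 assignments, p = 0.7, where the smallest possible p is 0.1). In control 2, control 3 and Bmal1 CKO 3 the share rests on 7, 1 and 6 peaks. Leaving out control 3 changed the difference to 0.00200 points, and leaving out control 2 to 0.721 points.

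In the long lists, most peaks in the clusters sat at the lowest local background. Of the cluster peaks, 71.3% in control 1 and 69.3% in Bmal1 CKO 2 had the lowest background value of their list, against 32.8% and 38.8% of peaks sampled from each whole list. In the short lists the cluster peaks at that value were 42.9% of 7 in control 2, 31.8% of 22 in Bmal1 CKO 1 and none of the 1 and 6 in control 3 and Bmal1 CKO 3. By overlap of at least 1 base, 501 of the 834 control 1 cluster peaks (60.1%) met a Bmal1 CKO 2 peak, against 40.7% of the whole control 1 list. In the other direction 503 of 812 (61.9%) met a control 1 peak, against 54.1% of the whole list.

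The members' promoters were poor in CpG. The median GC content was 36% (range 24.3 to 51.3%) against 56.3% over all 21263 promoters, and the median number of CpG was 1 against 13. Vmn2r and Olfr promoters had nearly the same composition, with a median GC content of 38.2% and 35% and a median of 1 CpG in each. The E-box CACGTG, which reads the same on both strands, was in 1 of 206 member promoters (0.485%), that of Vmn1r191, and in 7.84% of all promoters of the same length. It was in 8.47% of Vmn2r and 2.11% of Olfr promoters. Among genes with at most 1 CpG in the promoter, 2 of 111 members (1.8%) had an end summit in control 1 and 3 (2.70%) in Bmal1 CKO 2. Among 1351 genes of other families with at most 1 CpG, counted without Vmn2r and Olfr genes, the shares were 33.2% and 29.0%.

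Copies among the members were densest in the largest chromosome 7 cluster. Of 206 member promoters, 83 were at least 95% identical to that of another member. The chromosome 17 cluster and the smaller chromosome 7 clusters held none of these, and the largest cluster held 73. A stretch of 50 bases shared with the promoter of another gene was present in 113 of 206 members (54.9%), against 64.4% of Vmn2r, 13.5% of Olfr and 15.6% of all promoters, and in 91.6% of the 83 promoters of that cluster. There were 54 members in 21 groups of fully identical promoters, and 20 of these groups lay in that cluster, where 83 promoters came to 51 distinct sequences. Vmn1r117 was identical to Vmn1r241 and Vmn1r251, and Vmn1r119 to Vmn1r243 and Vmn1r253. Vmn1r166 and Vmn1r257, both with an end summit, belonged to 1 group of 6. In the other 5 groups with any end summit, only 1 member each had it. These summits lay after the start and outside the promoter windows compared here. Of 113 members with a shared stretch, 4 (3.54%) had an end summit in control 1 and 7 (6.19%) in Bmal1 CKO 2. Of 93 members without one, 1 (1.08%) and 4 (4.30%) had it. Among genes of other families, counted without Vmn2r and Olfr genes, the shares were 67.0% and 64.3% with a shared stretch. Without one they were 75.2% and 62.8%. How reads from identical copies were placed is not given in the sources used here, and the part of repeated sequence in the members' low counts was not tested.

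A list of 20 genes was chosen for roles with receptors in vomeronasal neurons or as marks of those neurons. It was not limited to genes specific to them, and expression in the retina was not examined. Of the 20, 12 had an end summit in control 1, 7 in Bmal1 CKO 2 and 0 in the short lists. All 7 were also called in control 1. The shares over all genes were 69.5% in control 1 and 58.9% in Bmal1 CKO 2, and 8 of the 20 had none. Trpc2, the main transduction channel of these neurons, had folds of 2.53 in control 1 and 2.61 in Bmal1 CKO 2. Gng8 and Gnao1, G protein subunits, had 2.79 and 2.48, and 2.86 and 2.22. Ano2, a calcium-activated chloride channel, had 3.44 and 3.37. The transcription factor genes Atf5, Meis2 and Lhx2 had 3.23 and 3.10, 3.77 and 2.98, and 4.05 and 3.15. Gnai2, the G protein subunit of neurons with type 1 receptors, had an end summit with a fold of 2.56 in control 1 only. Omp, the olfactory marker protein gene, had none in any list.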

How the data were processed

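ChIP-seq peak lists of 6 mouse retina libraries were used as deposited. Per the submitters' processing notes, the tools were Trim Galore, Bowtie2 and MACS2 and the build mm10. The sources used here do not give tool settings, read placement or any input library. Each deposited line holds, from the authors, a summit position, a fold enrichment (a ratio to the local background of that library), the −log10 p-value, the −log10 q-value and a score, the −log10 q-value times 10 without its decimals. Peaks were called per library and folds were not compared between libraries by a test.

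Stacked fragments and background were solved from the deposited fold and p-value, and all solved peaks came out whole within 0.02 (a sample of 3000 in each long list). The lists give no read totals. Gene ends, promoters and starts came from RefSeq tables of GRCm38.p6, whose coordinates are those of mm10. An end summit lay within 1 kb of either gene end, because the gene table has no strand. The end summits of members were counted without a test. One share was tested with an exact two-sided permutation test. Named were all members with an end summit, those nearest to the edge of the window, up to 10 neighbours by highest fold, and signalling genes called in both long lists. Gnai2, Omp and the gene overlapping Vmn1r4 were named after their values were seen. Members, families, lists and rules were chosen with earlier results of these data known.

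The counting of end summits and the solving of stacked fragments were tested on simulated data. The permutation test, the intervals and the density ratios were not. Alternatives covered the window, the peak threshold, the list length, the members, the cluster gap and the libraries. Calculations used Python 3.11.15 with pandas 2.3.3, scipy 1.17.1 and edlib 1.3.9.post1.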

Additional observations from a re-analysis of the deposited data

How the results depend on the processing

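The count of members with an end summit moved with the rule in the long lists. From 7 in control 1 it went to 15 with a 2 kb window, 4 with −log10 q of at least 5, 18 with pseudogenes included and 4 at RefSeq starts only. From 13 in Bmal1 CKO 2 it went to 21, 8 and 25 under the first 3 of these settings and to 10 at RefSeq starts only. With the same number of peaks per list, 372, it was 0 in both. By construction these settings count more or fewer peaks, genes or bases. A 500 bp window, any base of the peak, and receptors found by synonym gave 5, 7 and 7 in control 1, and 9, 14 and 14 in Bmal1 CKO 2. Short lists gave 0 under all 6 settings run. The density outside receptor windows over that inside ranged from 6.38 to 10.2 in control 1 and from 2.63 to 4.73 in Bmal1 CKO 2. The genotype difference in cluster share ranged from 0.00200 to 0.721 points when 1 library was left out, and was 1.79 points (exact permutation p = 0.3) with equal lists. Its direction held in all 12 alternatives, which reuse the same libraries. The replicate block among them leaves the difference unchanged by construction. With same-numbered libraries as a replicate block the difference was 0.274 points (exact sign-flip p = 1, smallest possible 0.25). The correlations of deviations for same-numbered libraries were -0.671, -0.833 and 0.735. Correlations were negative between a long and a short list and positive between lists of the same kind, with 0.870 between the long lists. The deviations were not corrected for list length, so they cannot show whether the numbers pair the libraries. The settings with synonyms, with RefSeq starts only and for the density ratio were chosen after seeing the data. The short lists hold too few peaks to describe single receptor genes.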

Other observations

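Vmn1r pseudogenes, which share the clusters with the receptor genes, had end summits at 11 of 142 (7.75%) in control 1 and 12 (8.45%) in Bmal1 CKO 2, and at 0 in the short lists. A further 5 protein-coding genes carry a Vmn1r name only as a synonym. Of these, Gm10670 (Vmn1r102) had an end summit of fold 4.98, found only in Bmal1 CKO 2, and V1ra8, Gm16451, Gm10665 and V1rd19 had none in any list.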
